A study of Homo sapiens with 28 samples.

Results

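IL7R, FLT3 and the genes that carry their signals through JAK1, JAK3 and STAT5 were followed in SEM cells after removal of the architectural protein CTCF. SEM is an established human line of B cell acute lymphoblastic leukemia with an MLL-AF4 fusion. The members were the rows named IL7R, FLT3, IL2RG, JAK1, JAK3, STAT5A, STAT5B, CISH, SOCS1 and SOCS2, 10 of the 57820 genes in each of 28 RNA-seq libraries. In a degron cell, the plant hormone auxin or an analogue marks a tagged protein for destruction, and the CTCF-AID2 cells used here carry an AID-mClover3 tag on endogenous CTCF together with the AID2 form of the OsTIR1 ligase, delivered by lentivirus under an MND promoter. The same cells also hold a doxycycline-inducible first-generation OsTIR1 in the AAVS1 locus.

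The 24 h set held CTCF-AID2 cells with and without 5-Ph-IAA (4 libraries each) and unmodified SEM WT cells with and without IAA (2 each). By the labels' protocol the SEM WT cells received DMSO or IAA together with doxycycline, with IAA at a far higher dose than 5-Ph-IAA. For 5-Ph-IAA the sample titles state 1 µM and the treatment protocol 10 µM. The 6 h set held 4 lines derived from the CTCF-AID2 cells, each untreated or given auxin for 6 h (2 libraries each). The labels write IAA for this auxin, as they also do for the 5-Ph-IAA libraries of the 24 h set, and the study names 5-Ph-IAA for these lines. These lines carry an added doxycycline-inducible CTCF that is full length (the WT line) or lacks zinc finger 1 (dZF1), zinc finger 10 (dZF10) or the RNA binding region (dRBR). The labels do not say in which 6 h libraries doxycycline was given, so whether added CTCF was present cannot be told. The WT line of the 6 h set is a degron line and is not the SEM WT of the 24 h set, and neither set says that replicates were separate cultures, so p-values measure the spread between these libraries only.

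Library totals ran from 45.7 to 59.8 M counts at 24 h and from 25.8 to 60.7 M at 6 h. All 8 B-lineage precursor markers lay above 1 CPM (counts scaled to the library total after TMM adjustment), with a summed level of 1010 to 1510 CPM. The T cell gene CD3D and the erythroid gene HBA1 had 0 counts in every library. Of 7 T and NK markers, 2 lay above 1 CPM, TRAC (27.5 to 57.2 CPM) and NKG7 (13.9 to 27.6 CPM). The T and NK list summed to 42.9 to 84.2 CPM. Summed myeloid markers moved with auxin at 6 h, from 14.9 to 22.7 CPM in untreated libraries to 9.66 to 13.2 CPM in auxin libraries. Of 3 myeloid markers tested in the 4-line mean at 6 h, 1 rose and 2 fell (25.1% and 26.4% of all genes tested). Of the 8 B-lineage markers, 6 rose and 0 fell with auxin in CTCF-AID2 cells at 24 h (29.2% and 29.5% of all genes tested). In the mean of the 4 lines at 6 h, 1 rose and 5 fell (25.1% and 26.4% of all genes tested). The part of either list in the results was not tested. CTCF mRNA, which does not measure the degraded protein, was higher after auxin in CTCF-AID2 cells (148 against 253 CPM, log2 fold change 0.77 ± 0.02 SE) and in all 4 lines at 6 h (0.39 to 0.83, the highest in dZF1), while SEM WT cells had -0.10 ± 0.04 (adjusted p = 0.0562). Replicate 2 of the auxin-treated dZF1 line stood apart: its counts differed from those of its partner with a chi-square per degree of freedom of 164.45, against 3.02 to 45.53 for the other replicate pairs, so the dZF1 values on which results turn are also given without it (CTCF 0.68).

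IL7R is the alpha chain of the interleukin-7 receptor and pairs with the common gamma chain encoded by IL2RG. Ligand binding brings together JAK1, held by IL7R, and JAK3, held by the gamma chain, and these kinases activate STAT5A and STAT5B, which enter the nucleus and switch on genes that include CISH, SOCS1 and SOCS2, inhibitors of the same pathway. FLT3 is a receptor tyrosine kinase of early hematopoietic cells that can also activate STAT5, is known for high expression in MLL-rearranged leukemia, and with IL7R supports the growth of B cell precursors.

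The CISH promoter is printed because it holds repeated copies of the site that STAT5 is known to recognise. The STAT5 motif TTCNNNGAA, which reads the same on both strands, occurred 4 times in the 300 bases around its start (250 before and 50 after) and is in capitals. The sequence is from RefSeq, GRCh38.p14, chr3:50611725-50612024, minus strand.

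CISH promoter: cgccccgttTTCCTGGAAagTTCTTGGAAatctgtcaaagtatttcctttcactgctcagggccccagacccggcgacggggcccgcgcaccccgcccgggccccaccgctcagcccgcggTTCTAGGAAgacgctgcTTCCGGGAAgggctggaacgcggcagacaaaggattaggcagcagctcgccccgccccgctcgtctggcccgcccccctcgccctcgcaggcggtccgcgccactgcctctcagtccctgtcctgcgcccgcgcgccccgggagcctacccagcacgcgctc

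The motif was in 7.66% of the 35116 promoters of the table. The promoters listed for IL7R, FLT3, IL2RG, JAK1, JAK3, STAT5A, STAT5B and SOCS1 held no such run of letters, and SOCS2 was not matched.

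Levels between genes were compared per length, in TPM, the authors' length-scaled share of transcripts. This takes reads to cover whole transcripts, as with the total RNA kit of the methods, whereas the labels name a 3′ kit, so the ranking is conditional. In the 24 h set FLT3 was the most abundant of the 10, with a median of 204 TPM (159 to 255). IL7R followed with 23.4 TPM, then JAK1 with 17.1, STAT5B with 11.3, IL2RG with 10.4 and JAK3 with 5.12 TPM. The inhibitors lay lowest, with SOCS2 at 1.12, CISH at 0.685 and SOCS1 at 0.125 TPM, and STAT5A at 2.79 TPM lay between them and the kinases. The ranges of IL7R (14.8 to 29.7 TPM) and JAK1 (14.2 to 21.2 TPM) overlapped, as did those of STAT5B and IL2RG. IL2RG (4.41 to 17 TPM) also overlapped JAK1 and JAK3 (3.37 to 9.31 TPM), and SOCS2 overlapped CISH, whereas FLT3 stood clear of every other member.

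**Figure D1:**
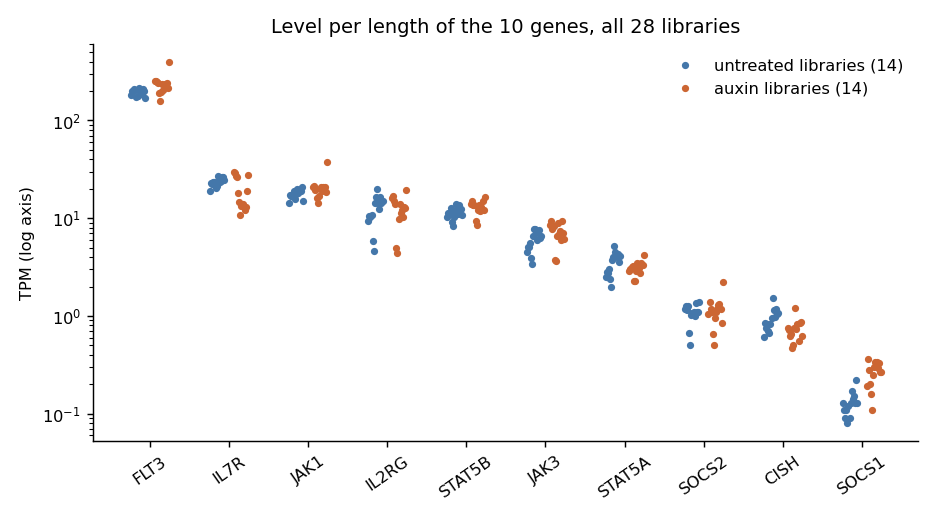
TPM (log axis) of each of the 10 genes, one point per library, with 14 untreated libraries in blue and 14 auxin libraries in orange. FLT3 sits above 150 TPM throughout and SOCS1 below 0.4 TPM, and the highest FLT3 and JAK1 points belong to auxin-treated dZF1 replicate 2.

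The fall of IL7R at 6 h of auxin was the largest change of any tested member. Its estimated size was greatest in the WT line and least in dZF1. That difference passed with all libraries, but its call depended on single libraries. In the WT line IL7R stood at 178 and 187 CPM without auxin and at 91.2 and 85.4 CPM with it. The groups did not overlap, and the log2 fold change was -1.05 ± 0.08 (SE; adjusted p = 1.34e-05 by limma-voom), so that the level fell by 51.7%, the single 2-fold change among the 9 members above the filter (1.09% of genes fell that far and passed). In dZF10 it went from 181 and 174 CPM to 99.4 and 86.8 CPM (-0.94 ± 0.08, adjusted p = 2.15e-05).

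In dRBR the untreated libraries held 159 and 165 CPM and the auxin libraries 107 and 97.7 CPM (-0.66 ± 0.08, adjusted p = 0.000526). In dZF1 the levels were 196 and 191 CPM without auxin and 151 and 166 CPM with it (-0.29 ± 0.08, adjusted p = 0.0135). Without auxin-treated replicate 2 the dZF1 value was -0.36 (adjusted p = 0.0076). The dZF1 call was lost without either untreated dZF1 library (-0.28, adjusted p = 0.0719, without replicate 1; -0.31, adjusted p = 0.0606, without replicate 2), whereas the falls in the other 3 lines passed with any 1 library left out. Averaged over the 4 lines IL7R fell by 39.9% (-0.74 ± 0.04, adjusted p = 7.88e-08).

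**Figure D2:**
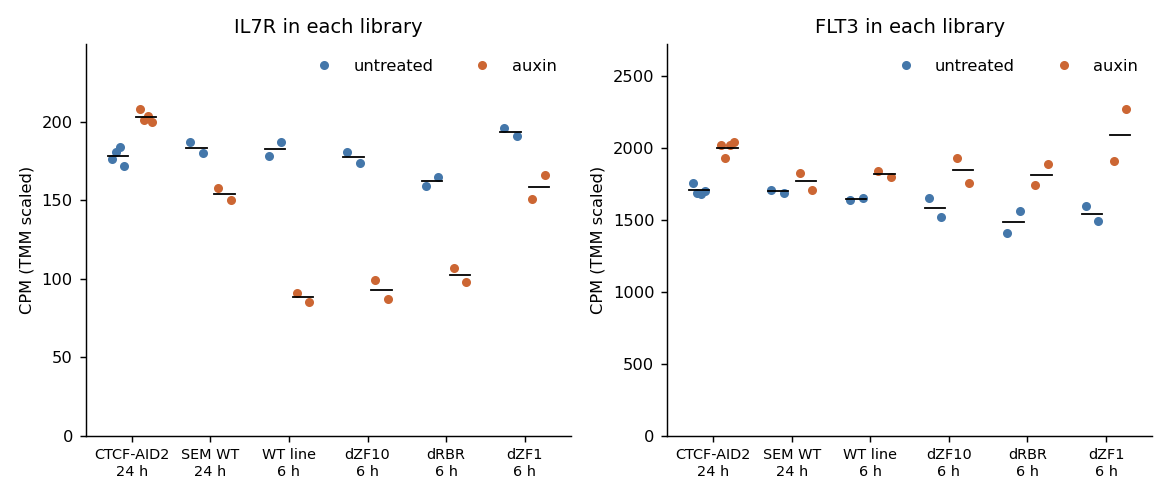
CPM of IL7R (left) and FLT3 (right) in each library, with untreated libraries in blue, auxin libraries in orange and black bars at group means. IL7R drops to between 85.4 and 107 CPM in the WT, dZF10 and dRBR lines and stays at 151 and 166 CPM in dZF1, while at 24 h the CTCF-AID2 auxin libraries lie above their untreated ones.

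The difference between lines was tested directly. The auxin effect on IL7R in dZF1 was 0.76 ± 0.11 log2 units less negative than in the WT line (95% interval 0.51 to 1.00, adjusted p = 0.0279). Only 0.331% of the genes tested passed in that comparison, and IL7R was the member that did (1 of 9 tested). The value was 0.69 (adjusted p = 0.016) without auxin-treated dZF1 replicate 2 and 0.81 without replicate 1. It lay between 0.70 and 0.79 when any other library of these lines was left out, but the call was then lost: adjusted p was 0.0864 and 0.205 without untreated WT line replicates 1 and 2, 0.0911 and 0.195 without their auxin-treated counterparts, and 0.102 and 0.185 without untreated dZF1 replicates 1 and 2. A fit of only these 4 groups gave 0.75 (adjusted p = 0.393).

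The other mutant lines gave less of a contrast. The dRBR effect on IL7R differed from the WT line effect by 0.38 ± 0.11 (unadjusted p = 0.00472, adjusted p = 1), and the dZF10 effect by 0.11 (95% interval -0.13 to 0.35, adjusted p = 1). No member passed by limma-voom for these 2 lines, where 0.0432% (dZF10) and 0% (dRBR) of genes did. At an unadjusted p under 0.05 the counts were 1 member (IL7R) for dRBR and 0 for dZF10, and edgeR and DESeq2 each gave 0. All these differences share the WT line libraries. Among auxin-treated 6 h libraries IL7R was lowest in the WT line (88.3 CPM), then dZF10 (93.1), dRBR (102) and dZF1 (158 CPM). The ranges of neighbours in that order overlapped up to dRBR, and dZF1 stood clear of the other 3.

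Before auxin the lines were much closer. Over all libraries of each line IL7R was higher in dZF1 than in the WT line by 0.46 ± 0.06 (adjusted p = 0.0109, 1 of 9 members against 0.0935% of genes), but between untreated libraries alone this difference was 0.09 (adjusted p = 0.999). Without auxin-treated dZF1 replicate 2 it was 0.43 (adjusted p = 0.0069). It lost its call without either untreated dZF1 library, either untreated WT line library or auxin-treated WT line replicate 2 (adjusted p of 0.108, 0.0505, 0.0914, 0.0846 and 0.162 in that order), at values of 0.44 to 0.48. Against the WT line no member passed in dZF10 (0.0575% of genes) or dRBR (0% of genes) by limma-voom, edgeR or DESeq2, and at an unadjusted p under 0.05 there were 1 (IL2RG) and 0.

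At 24 h IL7R moved the other way. The untreated CTCF-AID2 libraries held 176, 181, 184 and 172 CPM and the auxin libraries 208, 201, 204 and 200 CPM, a rise of 14% (0.19 ± 0.03, adjusted p = 7.69e-05) with no overlap. In SEM WT cells, which have no degron, IL7R went from 187 and 180 CPM to 158 and 150 CPM under IAA with doxycycline (-0.26 ± 0.04, adjusted p = 0.000882). The CTCF-AID2 effect exceeded the SEM WT effect by 0.45 ± 0.05 (adjusted p = 1.27e-05). Line, agent, dose, doxycycline and a file difference (fewer non-whole counts in SEM WT) cannot be told apart in that difference. The 6 h and 24 h sets differ in line, time and sequencing depth, and may differ in auxin dose and doxycycline. These cannot be told apart either, and no test was made between the sets.

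IL7R lies at chr5:35852797-35879705 on the plus strand (hg19). The nearest tested genes on either side are SPEF2, a sperm flagellar protein gene 38.1 kb below it, and CAPSL, a calcium-binding protein gene 24.7 kb above it. Both were thinly covered, with 8 to 101 and 3 to 69 counts per library. At 24 h CAPSL held 17 to 31 counts in auxin libraries and 48 to 69 in untreated ones. At 6 h it held 3 to 22 and 12 to 45. It was tested only because untreated libraries cleared the filter of 1 CPM. SPEF2 had a median of 13.5 counts in the 24 h auxin libraries and 61.5 in untreated ones, so the size of these falls is uncertain. In CTCF-AID2 cells at 24 h SPEF2 fell by 2.37 ± 0.21 log2 units (adjusted p = 3.09e-07) and CAPSL by 1.52 ± 0.20 (adjusted p = 1.35e-05), while IL7R between them rose.

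At 6 h CAPSL fell in the WT line (-2.24 ± 0.37), dZF10 (-2.51 ± 0.39) and dZF1 (-1.05 ± 0.30, adjusted p = 0.02), and had -0.88 ± 0.34 in dRBR (adjusted p = 0.125). SPEF2 passed only in the WT line (-1.65 ± 0.33, adjusted p = 0.0076), a call lost in 2 of 4 fits with 1 library left out (-2.06 to -1.23). It had -0.88 in dZF10, -0.50 in dRBR and 0.24 ± 0.25 in dZF1, and none of these passed. The dZF1 and WT line effects on SPEF2 differed by 1.88 ± 0.42, which did not pass (adjusted p = 0.0764). Without auxin-treated dZF1 replicate 2 the dZF1 values were -1.28 for CAPSL and 0.15 for SPEF2, and the SPEF2 difference was 1.80. The dZF1 call of CAPSL was lost in 2 of 4 fits with 1 library left out (-1.28 to -0.82). In SEM WT cells CAPSL also fell (-0.86 ± 0.26, adjusted p = 0.0311), a call lost in 4 of 4 fits with 1 library left out (-1.03 to -0.69). SPEF2 had 0.18 ± 0.17 in SEM WT cells. Over all members, 6 of 19 nearest neighbours rose and 5 fell in CTCF-AID2 cells at 24 h, where 29.2% of all genes tested rose and 29.5% fell, among them AK4 beside JAK1 (-0.97 ± 0.05) and FOXO4 beside IL2RG (0.67 ± 0.05).

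**Figure D3:**
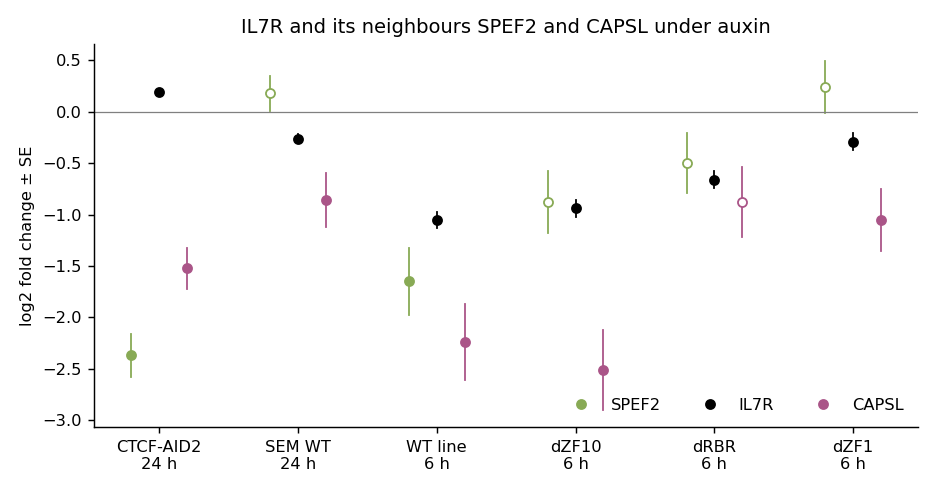
Log2 fold change ± SE of SPEF2 (green), IL7R (black) and CAPSL (purple) under auxin in each line, with filled points at an adjusted p of at most 0.05. In CTCF-AID2 cells at 24 h IL7R is at 0.19 between SPEF2 at -2.37 and CAPSL at -1.52, and in dZF1 at 6 h IL7R and SPEF2 lie nearest to 0.

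FLT3, at chr13:28577411-28674729 on the minus strand, rose modestly. In CTCF-AID2 cells it went from 1760, 1690, 1680 and 1700 CPM to 2020, 1930, 2020 and 2040 CPM, with no overlap (0.23 ± 0.03, adjusted p = 7.36e-06). SEM WT cells gave 0.06 ± 0.04 (adjusted p = 0.311), and the effects differed by 0.17 (adjusted p = 0.0129), a call lost without IAA-treated SEM WT replicate 2 (0.11, adjusted p = 0.0782). At 6 h the mean over lines was 0.27 ± 0.05 (adjusted p = 0.000371), and every line lay above 0. By line it passed in dZF1 (0.43 ± 0.09, adjusted p = 0.00432; 0.31, adjusted p = 0.0182, without auxin replicate 2), and the WT, dZF10 and dRBR values of 0.15, 0.22 and 0.30 did not pass (adjusted p = 0.326, 0.115 and 0.0579). The dZF1 effect was not shown to differ from the WT line effect (0.29 ± 0.13, unadjusted p = 0.0454, adjusted p = 0.281; 0.16 without auxin-treated dZF1 replicate 2), although it passed without auxin-treated dZF1 replicate 1 (0.40, adjusted p = 0.0133).

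The partner chain and its kinase gave the largest rises among tested members at 24 h. JAK3, at chr19:17935589-17958880, stood at 51.9, 53, 50 and 54 CPM in untreated CTCF-AID2 libraries and at 80.7, 86.5, 78.5 and 85.8 CPM in auxin libraries. This was a rise of 58.4% (0.66 ± 0.04, adjusted p = 6.8e-09) with a wide gap between the groups. IL2RG, at chrX:70327254-70331958, went from 35.1, 33.6, 33.6 and 33.1 CPM to 48.3, 48.8, 48.8 and 47.4 CPM (0.51 ± 0.03, adjusted p = 4.97e-09). The values in SEM WT cells were 0.15 ± 0.06 for JAK3 and 0.02 ± 0.05 for IL2RG, and neither passed (adjusted p = 0.123 and 0.839). Untreated SEM WT cells held 17.8 CPM of IL2RG on average against 33.9 CPM in untreated CTCF-AID2 cells, a difference that was not tested.

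At 6 h IL2RG instead fell with IL7R, by 0.27 ± 0.04 on average (adjusted p = 0.000352). It fell in the WT line (52.7 and 50.3 to 37.3 and 41.8 CPM), in dZF10 (42.8 and 47.5 to 35.1 and 39.0 CPM) and in dRBR (49.0 and 44.4 to 37.5 and 37.7 CPM), and in dZF1 it had -0.10 ± 0.09 (adjusted p = 0.376; -0.09 without auxin replicate 2). The calls by line were lost in 3 of 4 fits with 1 library left out in the WT line (adjusted p up to 0.125, passing only without auxin replicate 2) and in 4 of 4 in dZF10 (up to 0.293) and dRBR (up to 0.254). JAK3 had a mean of 0.07 ± 0.10 at 6 h (adjusted p = 0.585). Auxin-treated dZF1 replicate 2 held 45.2 CPM of JAK3 against 80.6 CPM in its partner, and without that library the mean was 0.18 and passed (adjusted p = 0.00949).

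Matches to the CTCF core consensus, a string of 14 bases searched on both strands of GRCh37, were counted within 50 kb of each gene start. Of 13568 genes tested and placed, 26.0% had at least 1 match. IL2RG had 2, JAK3 had 1 and STAT5A and STAT5B shared 2, and IL7R, FLT3, JAK1, CISH, SOCS1 and SOCS2 had none. Those of IL2RG and JAK3 are printed because these genes rose most at 24 h, with the match in capitals and 8 bases on each side. A match of letters is not a measured binding site.

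IL2RG, chrX:70318355-70318368, plus strand, 13.6 kb past the start: ctcccaccCCACCAGGGGGCGGcactcact

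IL2RG, chrX:70349200-70349213, minus strand, 17.2 kb before the start: ggaggcagCCAGCAGGTGGCGGtcgcagga

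JAK3, chr19:17966558-17966571, minus strand, 7.7 kb before the start: gcgagtgtCCACCAGGTGGCAGcagaacca

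JAK1, at chr1:65298906-65533437, rose in CTCF-AID2 cells from 143 to 149 CPM untreated to 167 to 173 CPM with auxin (0.22, adjusted p = 6.68e-06). Its 6 h mean was 0.17 ± 0.05 (adjusted p = 0.0102). The dZF1 rise of JAK1 (0.35, adjusted p = 0.0174) was 0.19 and did not pass without auxin replicate 2 (adjusted p = 0.12), nor did it pass without untreated replicate 1 (0.36, adjusted p = 0.0605) or 2 (0.33, adjusted p = 0.097). RAVER2 overlaps JAK1 on the opposite strand.

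The STAT5 genes lie side by side at chr17:40351194-40463961, overlap on opposite strands and are close paralogs, and no source used here states whether reads were counted by strand, so their values are uncertain. STAT5B rose in CTCF-AID2 cells, from 95.3 to 96.6 CPM to 107 to 115 CPM (0.21 ± 0.03), in SEM WT cells (0.15, adjusted p = 0.0263; 0.11 and not passed without untreated replicate 1 or IAA replicate 2, adjusted p = 0.222 and 0.208), and on average at 6 h (0.17 ± 0.03, adjusted p = 0.000939). STAT5A was slightly higher in CTCF-AID2 cells, where the groups overlapped (16.3 to 18 against 17.9 to 19.5 CPM; 0.13, adjusted p = 0.0205), and had 0.31 ± 0.06 in SEM WT cells (adjusted p = 0.00393). The CTCF-AID2 call was lost without auxin replicate 3 or 4 (adjusted p = 0.0504 and 0.0814) and without untreated replicate 1, 3 or 4 (0.06, 0.0501 and 0.111). At 6 h STAT5A fell on average by 0.36 ± 0.05 (adjusted p = 9.14e-05). It passed in each of the 4 lines with all libraries, but with 1 library of the line left out the call was lost in 4 of 4 fits in the WT line (adjusted p = 0.0723 to 0.306), dZF10 (0.0586 to 0.14) and dRBR (0.0831 to 0.122). In dZF1 it was lost without auxin replicate 2 (-0.22, adjusted p = 0.171) or untreated replicate 2 (-0.20, adjusted p = 0.218).

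CISH, at chr3:50643920-50649205, was low, at 3.01 to 7.66 CPM, and overlaps MAPKAPK3 on the opposite strand. In CTCF-AID2 cells it fell from 4.84, 5.38, 4.90 and 4.98 CPM to 4.64, 4.35, 3.98 and 4.28 CPM (-0.22 ± 0.08, adjusted p = 0.0309), and the call was lost without untreated replicate 2 (adjusted p = 0.0892), auxin replicate 2 (0.0521) or auxin replicate 3 (0.0951). At 6 h CISH did not pass in the WT line (0.14 with overlapping groups, adjusted p = 0.775), dZF10 (-0.60, adjusted p = 0.109) or dRBR (-0.56, adjusted p = 0.165). Its mean over the 4 lines was -0.43 ± 0.12 (adjusted p = 0.0121; -0.30 without auxin-treated dZF1 replicate 2). The dZF1 value of -0.71 (adjusted p = 0.0482) rested on that library, which held 3.01 CPM against 5.86 CPM in its partner, and was -0.19 (adjusted p = 0.569) without it.

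SOCS2, at chr12:93963590-93977263, fell from 4.60 to 5.38 CPM to 4.04 to 4.54 CPM in CTCF-AID2 cells (-0.19, adjusted p = 0.0406) and had a mean of 0.02 at 6 h (adjusted p = 0.858). The CTCF-AID2 call was lost by edgeR (adjusted p = 0.052) and DESeq2 (0.0995), with library sizes alone (0.058), with no filter (0.104), without auxin replicate 1, 2 or 3 (0.078, 0.0794 and 0.0629) and without untreated replicate 1 or 3 (0.0904 and 0.0638). SOCS1, at chr16:11348274-11350061, never reached 1 CPM (7 to 47 counts per library) and was not tested in the filtered data. Its CTCF-AID2 levels were 0.376, 0.277, 0.245 and 0.267 CPM without auxin and 0.452, 0.853, 0.696 and 0.533 CPM with it. In a fit without the filter this was 1.07 ± 0.27 (adjusted p = 0.0064), and the 6 h mean was 1.05 ± 0.16 (adjusted p = 0.000292). So few counts, and the overlap with RMI2 on the opposite strand, leave SOCS1 the least certain member.

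The number of members that passed was read against the share of all genes that did. In CTCF-AID2 cells 9 of 9 tested members passed, 7 higher and 2 lower, where 58.7% of genes did (29.2% higher, 29.5% lower), and in SEM WT cells 3 of 9 where 18.9% did. In the difference between these effects 5 of 9 members passed (IL7R, FLT3, IL2RG, JAK1 and JAK3, all higher in CTCF-AID2), against 40.2% of genes (19.3% higher). At 6 h the counts were 3 of 9 in the WT line (background 13.7%), 3 in dZF10 (18.1%), 3 in dRBR (10.5%), 5 in dZF1 (33.6%; 3 without auxin replicate 2) and 7 for the mean, 3 higher and 4 lower (51.5%; 25.1% higher, 26.4% lower). The 3 members in the WT, dZF10 and dRBR lines were IL7R, IL2RG and STAT5A, all lower, where 7.21%, 9.24% and 5.68% of genes fell. Without any 1 library only IL7R remained in dZF10 and dRBR, and IL7R alone or with 1 more member in the WT line. When only the groups compared were fitted, 0 members passed in dZF1 and 5 each in the WT and dRBR lines. The median log2 fold change of the members was 0.21 in CTCF-AID2 cells and 0.02 for the 6 h mean, against 0 and -0.01 for all genes.

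**Figure D4:**
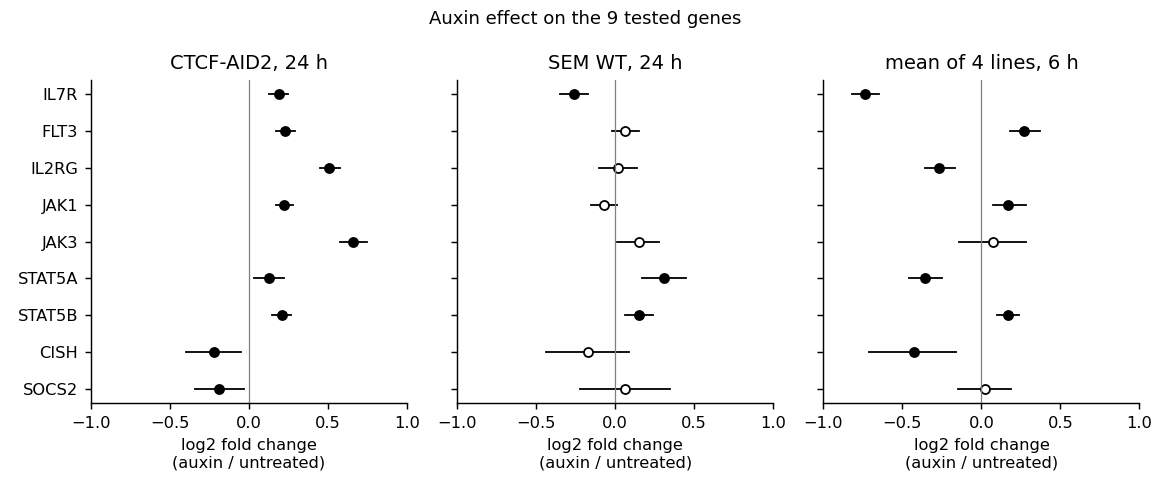
Log2 fold change (auxin over untreated) with 95% interval for the 9 tested members in CTCF-AID2 cells at 24 h, SEM WT cells at 24 h and the mean of the 4 lines at 6 h, with filled points at an adjusted p of at most 0.05. IL7R and IL2RG lie above 0 in CTCF-AID2 cells and below 0 in the 6 h mean, and JAK3 has the largest value at 24 h.

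The counts over other genes of the pathway stand beside the shares of all genes tested, which were 29.2% higher and 29.5% lower in CTCF-AID2 cells at 24 h and 25.1% higher and 26.4% lower in the 6 h mean, and no list was tested as a whole. Of 7 other JAK and STAT genes tested, 5 rose and none fell in CTCF-AID2 cells, and of 6 tested 4 rose and none fell in the 6 h mean. STAT4, counted among the 5, reached at most 1.18 CPM at 24 h and so lay near the filter. JAK2, the kinase of several hematopoietic cytokine receptors, doubled in both: it rose from 11.0 to 22.6 CPM in CTCF-AID2 cells (1.04 ± 0.06, adjusted p = 1.51e-09) and by 1.06 ± 0.07 in the 6 h mean, in all 4 lines (0.79 to 1.58). SEM WT cells had -0.07 for JAK2 (adjusted p = 0.528). STAT3, the neighbour of the STAT5 genes, rose by 0.52 ± 0.03 and 0.39 ± 0.05.

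Among other cytokine receptor chains 8 of 14 rose and 2 fell at 24 h. IL2RB, the beta chain shared by the interleukin-2 and interleukin-15 receptors, rose from 0.255 to 1.01 CPM (1.96 ± 0.16) and IL4R by 0.44 ± 0.04, while IL15RA fell from 2.50 to 1.04 CPM (-1.27 ± 0.13). IL2RB reached at most 1.07 CPM at 24 h (11 to 61 counts per library). It was tested only because its highest libraries cleared the filter. Of 4 ligands above the filter 3 fell, among them IL7 (0.418 to 0.146 CPM) and FLT3LG (1.45 to 0.713 CPM), all near 1 CPM or below. At 24 h IL7 had a median of 0.433 CPM (at most 1.66) and FLT3LG of 1.21 CPM (at most 1.73). They cleared the filter through the libraries where they were high, so the ligand count cannot be read against the share of all genes. Of 16 other inhibitors of JAK-STAT signaling 9 rose and 2 fell, with the ubiquitin ligase gene CBL at 0.49 ± 0.04 and SOCS3 at 1.51 ± 0.20 from 0.267 CPM. SOCS3, with at most 1.2 CPM at 24 h (13 to 61 counts per library), also lay near the filter. Of 30 genes of the RAS-ERK and PI3K-AKT branch 13 rose and none fell, each by less than 2-fold, with FOXO3 at 0.40 ± 0.03.

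Among STAT5 target genes 5 of 9 rose and 3 fell at 24 h, and in the 6 h mean 3 rose and 4 fell. MYC, a growth regulator, fell in both (341 to 185 CPM, -0.88 ± 0.03, at 24 h; -1.22 ± 0.04 at 6 h), and the survival gene MCL1 rose in both (0.20 ± 0.03 and 0.51 ± 0.03). The repressor gene BCL6 rose at 24 h (1.11 ± 0.08) and fell in the 6 h mean (-0.59 ± 0.07), and PIM1 did the same with smaller values (0.32 and -0.29).

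**Figure D5:**
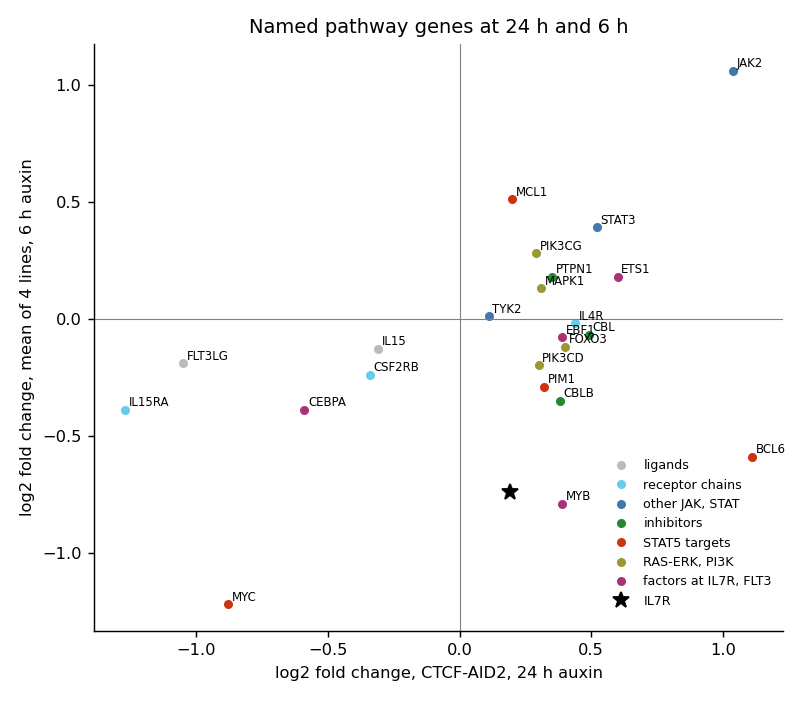
Log2 fold change in CTCF-AID2 cells at 24 h (horizontal) against the mean of the 4 lines at 6 h (vertical) for 23 named pathway genes, colored by list, with IL7R as a star. JAK2 lies at the upper right and MYC at the lower left. MYB, BCL6, CBLB, PIM1, PIK3CD, FOXO3 and EBF1 are among the genes in the lower right with IL7R.

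Of 12 transcription factors known to bind at IL7R or FLT3, 6 rose and 2 fell at 24 h (29.2% and 29.5% of all genes tested). In the 6 h mean 4 rose and 5 fell (25.1% and 26.4% of all genes tested). MYB, a regulator of hematopoietic progenitors, rose at 24 h (116 to 153 CPM, 0.39 ± 0.04) and fell at 6 h in every line (-1.12 in the WT line, -0.83 in dZF10, -0.75 in dRBR and -0.46 in dZF1, or -0.57 without auxin replicate 2). Its effect in dZF1 was 0.66 ± 0.12 less negative than in the WT line (adjusted p = 0.0468; 0.55, adjusted p = 0.0293, without auxin-treated dZF1 replicate 2). That call was lost without any library of the WT line or any untreated dZF1 library, at values of 0.62 to 0.70 (adjusted p of 0.139 to 0.253), with no filter (adjusted p = 0.0871) and with only the groups compared (adjusted p = 0.416).

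Over the 28 libraries, each centred on its set, the 5 genes of 9002 whose log2 CPM followed IL7R most closely were FRMD4B (Pearson r = 0.94), MYB (0.93), JARID2 (0.93), AGO4 (0.93) and IRF4 (0.92). Within the 6 h set these correlations were 0.95 to 0.97. Within the 24 h set they were 0.82, 0.57, 0.52, 0.59 and 0.36 in that order. FLT3 was followed most closely by P4HA1 (0.97), C5 (0.95), CDCA2 (0.95), RNASEH2B (0.94) and PTPN13 (0.93). These libraries share treatments and lines, so the correlations describe the pattern and carry no test.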

How the data were processed

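The authors trimmed reads (Trim Galore 0.6.3), aligned them to hg19 with STAR 2.7.9a and deposited RSEM 1.3.1 expected counts, TPM and FPKM per gene and library. The expected counts were rounded for tests, the authors' TPM served to compare levels between genes, and their FPKM were not used. The labels name a 3′ kit and the methods a stranded total RNA kit. The SEM WT files hold fewer non-whole counts than the others, with 2.73 to 2.82% of genes against 7.08 to 7.84% in the CTCF-AID2 files of the same set. Lines were compared within sets and treatments within lines. The 24 h difference of effects still crosses this file difference, whose part was not tested.

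Genes above 1 CPM in at least 1 library (13973 at 24 h, 13902 at 6 h) were fitted per set with limma-voom (limma 3.58.1, TMM from edgeR 4.0.16, R 4.3.3). A gene passed at a Benjamini-Hochberg adjusted p of at most 0.05 over all genes, and differences of effects were contrasts of the same fit. Alternatives were edgeR, DESeq2 1.42.0, other scalings and filters, a replicate block and leaving out each library. Members, lists and tests were chosen with earlier results of these data known.

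Named were all members, up to 4 genes per list with the smallest adjusted p in CTCF-AID2 cells, any list gene past 2-fold, nearest neighbours, and the 5 genes most like IL7R and FLT3. Coordinates came from the GENCODE annotation on GRCh37, since the files hold none. Scripts were tested on simulated data.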

Additional observations from a re-analysis of the deposited data

Results flagged for a closer look

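No member's CPM stood apart from its group by Dixon's test in the 4-library CTCF-AID2 groups (0 of 22 gene and group sets, CTCF included, where chance would give about 1 in 20). Groups of 2 libraries were not tested.

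Effects that differed between lines by the contrast itself were, at 24 h (CTCF-AID2 minus SEM WT), IL7R with a difference of 0.45, FLT3 with 0.17, IL2RG with 0.49, JAK1 with 0.29 and JAK3 with 0.52 log2 units, and at 6 h IL7R with 0.76 (dZF1 minus WT line). IL7R was the member whose effects had opposite signs at 24 h and both passed, 0.19 in CTCF-AID2 cells and -0.26 in SEM WT cells. Line, agent (5-Ph-IAA against IAA), dose, the doxycycline given to SEM WT cells and the fewer non-whole counts in their files cannot be told apart in the 24 h differences.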

How the results depend on the processing

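Of 637 values of members that passed, taken under every alternative run, 541 kept their call and 96 lost it, and none changed sign. The members counted as passed moved as follows. In the WT line at 6 h (3) there was 1 with no filter and 5 when only the groups compared were fitted. For dZF1 at 6 h (5) there were 3 and 0, and for dRBR (3) 5 with only the groups compared. For the dZF1 effect against the WT line effect (1) and dZF1 against the WT line (1) there were 0 with only the groups compared, where IL7R had 0.75 (adjusted p = 0.393) and 0.46 (adjusted p = 0.329), and for the latter also 0 between untreated libraries. IL7R in dZF10 and dRBR against the WT line (0.02 each) was -0.04 and -0.17 between untreated libraries.

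Leaving out 1 library gave 6 to 8 members in CTCF-AID2 cells, 2 to 3 in SEM WT cells, 4 to 6 for their difference, 1 to 2 in the WT line, 1 to 6 in dZF1, 1 to 1 in dZF10 and dRBR, 7 to 8 for the 6 h mean, 0 to 5 for the dZF1 effect difference and 0 to 2 for dZF1 against the WT line. Values near 0 that changed sign ranged from -0.05 to 0.17 (SOCS2) and -0.02 to 0.05 (IL2RG) in SEM WT cells, -0.22 to 0.13 for the CISH difference at 24 h, -0.03 to 0.18 (JAK3) and -0.04 to 0.07 (SOCS2) for the 6 h mean, and -0.03 to 0.06 (dZF10) and -0.01 to 0.05 (dRBR) for IL7R against the WT line.

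Over all genes, those passing numbered 46, 6 and 0 for the dZF1, dZF10 and dRBR effect differences and 364, 13 and 1 by DESeq2; 13, 8 and 0 for these lines against the WT line and 119, 30 and 31 by DESeq2. With no filter the WT line had 1238 (1899), dRBR 907 (1457), the dZF1 and dZF10 differences 12 and 3, and dZF1 and dRBR against the WT line 6 and 1. With only the groups compared they were 3461 in the WT line, 2 in dZF1 (4665), 2646 in dRBR, 0 and 2 for the dZF1 and dZF10 differences, and 0 and 11 for dZF1 and dRBR against the WT line. Between untreated libraries dZF1 and dZF10 had 0 and 0. The cause of these shifts was not tested.

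Same-numbered libraries did not deviate together in all pairs (correlations of -0.17 to 0.14), so the numbers were not taken as pairs. With the replicate block the members passed were 7 in CTCF-AID2 cells, 3 in SEM WT cells and 7 for the 6 h mean, and by line 2 (WT), 4 (dZF1), 3 (dZF10) and 2 (dRBR), and genes passing for the dZF1 difference were 18. The block also took the calls of SOCS2 (adjusted p = 0.0826) and STAT5A (0.0591) in CTCF-AID2 cells, and of the MYB difference between dZF1 and the WT line (0.66, adjusted p = 0.0618). Depth limits SOCS1, SPEF2 and CAPSL most.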
